A study of Mus musculus with 4 samples.

Results

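The genes described here are 37 genes of the hemogenic and blood lineages, chosen by symbol from a fixed list: 16 hematopoietic regulators, 6 erythroid genes, 2 megakaryocyte genes, 8 genes of blood cell surface proteins and receptors, and 5 genes of blood cell signalling and the cytoskeleton. The list was drawn up with earlier results of these data known. All 37 were among the 20701 gene symbols of the deposited table, and for each symbol the transcript entry with the most counts was used. Of the 37, 26 passed the filter on low counts and were tested together with all other genes (12715 in all). The remaining 11 had too few counts to be tested, and their counts are given with their groups.

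In the embryo, the first blood cells and their vessels arise together from lateral and extraembryonic mesoderm that expresses the receptor Kdr. Tal1 forms a DNA-binding complex with Lmo2, Gata factors and Ldb1 that starts the blood program, and Runx1 is needed for hemogenic endothelial cells to release blood progenitors. Primitive red cells of the yolk sac make embryonic globins, whereas leukocyte and platelet genes follow later in cells that carry surface proteins such as CD45, the product of Ptprc. The study reported blood-forming genes among those that rose in embryos with Isl1 loss and in the Isl1 knockout progenitors studied here. It proposed that Isl1, a LIM-homeodomain factor of cardiac progenitors, might also keep these cells from a hemogenic program. Cardiogenic and blood-forming mesoderm are thought to oppose each other.

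RNA was sequenced from 2 control and 2 Isl1_KO libraries, each at day 5 of differentiation. The control cells were E14 Tg(Nkx2-5-EmGFP) mouse embryonic stem cells, and the Isl1_KO cells were Isl1-/- clones of the same line made with CRISPR/Cas9. Both groups carried the Nkx2-5 reporter, were maintained as stem cells on mouse embryonic fibroblasts, and were sorted for GFP. The paper describes a directed protocol with growth factors, VEGF and BMP4 among them, and a hanging-drop protocol with embryoid bodies. In the directed protocol, cells were grown on gelatin before they were aggregated. The paper mentions RNA extraction after sorting under the directed protocol. The purity of the sort is not stated in its text. The libraries came from different clones of each genotype, and nothing shows that a clone was differentiated more than once, so that p-values measure only the spread between these libraries.

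The libraries held between 8821536 and 13186103 counts over 1 entry per gene. The control libraries lay close together, with a biological coefficient of variation of 1.29%, while it was 16.3% between the Isl1_KO libraries. Isl1 itself had 35.1 and 35.7 CPM in control (CPM, counts scaled by library size to a common total) and 1.31 and 2.08 CPM in Isl1_KO. Nkx2-5, whose reporter was used for sorting, had 21.1 and 19.8 CPM in control and 4.77 and 4.34 CPM in Isl1_KO. Of 15 markers of cardiac progenitors and cardiomyocytes, 14 fell in Isl1_KO, and Gata4 did not pass the test. Summed over 10 fibroblast markers, the level was 2492 and 2444 CPM in control, 1745 CPM in Isl1_KO replicate 1 and 695 CPM in replicate 2. For 9 markers of visceral endoderm the sums were 74.6, 71.6, 61.6 and 35.1 CPM in the same order, and for 18 endothelial markers they were 588, 595, 578 and 602 CPM. Although the endothelial sums were close, 11 of the 17 tested endothelial markers were lower in Isl1_KO replicate 2 than in replicate 1 beyond counting error and 2 were higher, with median log2 ratios to control of -0.16 in replicate 1 and -0.76 in replicate 2. The Isl1_KO libraries thus differed from each other in markers of all 3 kinds, and each is given apart below. In RNA from sorted cell populations, fewer cells of a type and less RNA per cell cannot be told apart.

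Most regulators of the blood program had higher values in Isl1_KO than in control and the globins had lower values, while 11 genes, most of them of leukocytes and platelets, had too few counts to be tested. Of the 26 tested genes, Runx1 and Grap2 rose in Isl1_KO, so 2 passed a threshold of 0.05 on the adjusted p of edgeR's quasi-likelihood test. Over all 12715 tested genes, 0.511% were called higher and 1.94% lower (2.45% in either direction). None of the 26 was called lower in edgeR's test, where 2 had an unadjusted p under 0.05 in that direction and 11 in the other, against 12.2% and 11.0% of all tested genes. With the criteria of the study (DESeq2, unadjusted p under 0.05 and at least 1.5-fold), 8 of the 37 genes were called higher, against 1.32% of the 16855 genes of that test. These 8 were Tal1, Lmo2, Cbfa2t3, Gfi1, Gfi1b, Myb, Ikzf1 and Grap2. Those called lower were 2, Hbb-y and Cd34, against 4.57% of all genes (5.89% in either direction). By the adjusted p of DESeq2, 6 were higher (1.33% of all genes) and 1 was lower (3.34% of all genes). Among the 26 tested genes, both Isl1_KO libraries lay above both control libraries in 15 and below both in 7, where 29.2% and 29.0% of all tested genes did so. Because the genes were chosen with earlier results of these data known, such shares describe the list and do not test it. No blood lineage gene passed in edgeR when control replicate 1 or control replicate 2 was left out, in fits that called 28 of 13053 and 32 of 13104 genes and 0 of them higher. Without Isl1_KO replicate 1, 13 were called higher and 9 lower, and without Isl1_KO replicate 2, 13 and 5, in fits that called 6355 of 12870 and 4187 of 12793 genes, where the lone Isl1_KO library was assumed to vary as little as the control pair. Gfi1 and Coro1a reached the level of the filter in Isl1_KO only, so that their place among the tested genes depended on the group where they were higher.

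**Figure D1:**
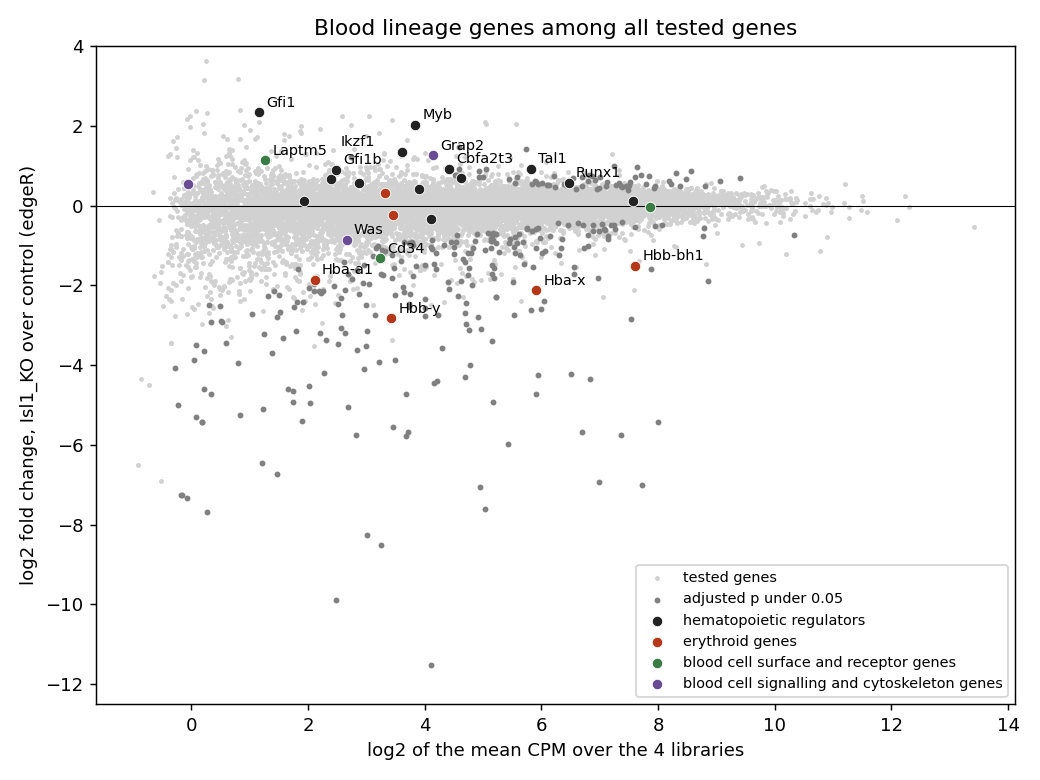
Log2 fold change of every tested gene in edgeR (Isl1_KO over control, vertical axis) against the log2 of its mean CPM over the 4 libraries (horizontal axis). Grey points are all 12715 tested genes, darker where the adjusted p was under 0.05, and coloured points are the 26 tested blood lineage genes by role. Regulators (black) lie mostly above 0, and of the erythroid genes (red) the 4 globins lie between -1.51 and -2.83.

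The Isl1_KO libraries differed from each other in both directions, so that each one was also set against the pooled control libraries. In 8 of the 26 tested genes Isl1_KO replicate 2 was above replicate 1 by more than counting error (95% exact interval of the ratio), and in 8 it was below, against 21.5% and 20.9% of all tested genes. The 8 higher in replicate 2 were Tal1, Lmo2, Cbfa2t3, Gfi1, Myb, Ikzf1, Hhex and Grap2, which are regulators apart from the adaptor Grap2. The 8 lower in replicate 2 were the 4 globins, Cd34, Cd44, Was and Ikzf2. The intervals cover counting error only, because each side of the ratio is a single library with no spread of its own. The reads also carried no molecular identifiers.

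**Figure D2:**
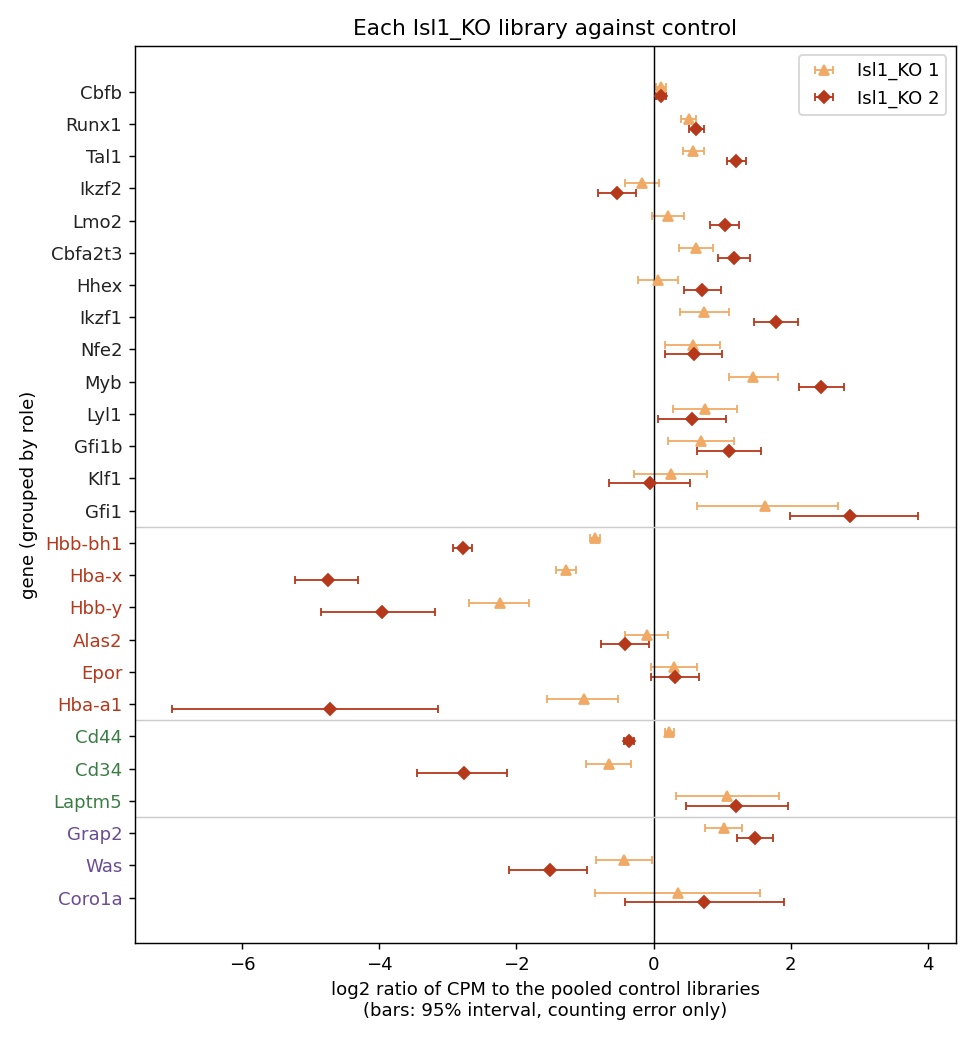
Log2 ratio of the CPM of each Isl1_KO library to the pooled control libraries (horizontal axis) for the 26 tested genes, grouped by role and ordered by level within each group. Bars are 95% exact intervals for counting error only, so they do not show the spread between clones. Replicate 2 (diamonds) lies farther from 0 than replicate 1 (triangles) for Tal1, Myb, Gfi1, Ikzf1 and all 4 globins.

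Runx1 encodes the DNA-binding subunit of core binding factor and was the regulator that rose past the threshold. Its counts were 620 and 657 in control and 1321 and 1265 in Isl1_KO, which is 70.4, 71.9, 102 and 109.8 CPM. Both Isl1_KO libraries lay above both controls, and they did not differ from each other beyond counting error (ratio of replicate 2 to replicate 1 of 1.08, 95% interval 1.00 to 1.17). The level was 1.48-fold higher in Isl1_KO, a log2 fold change of 0.57 with an SE of 0.0735 (adjusted p = 0.0335 in edgeR). Its DESeq2 log2 fold change was just under the 0.58 that the study required, so Runx1 is not among the 8 genes above. The call was lost when either control library was left out, with log2 fold changes of 0.55 without control replicate 1 and 0.59 without control replicate 2.

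Runx1 lies on chromosome 16 from 92601712 to 92826311 on the minus strand of NCBIM37, and it is transcribed from a distal and a proximal promoter. The counts add reads over all exons of an entry, and the 4 Runx1 entries share most of them, so the deposited table does not give the use of each promoter. The Runx1 entry with the fewest counts had 419, 442, 916 and 846 counts, and its log2 fold change in a fit of all entries was 0.59 (adjusted p = 0.0382). The 300-base windows around both starts are shown because Runx1 rose and because they differ in base content. They are taken from RefSeq on GRCm38.p6, another build than that of the counts, and run from 250 bases before the start to 50 bases after it. Capitals mark matches on either strand to any of 5 short motifs, with overlapping matches counted apart. The motif of Gata factors was searched as AGATAA only, and other spellings of it, such as TGATAA, were neither searched nor marked. That of Klf factors was searched as CCNCNCCC. For Runx factors the letters were TGTGGT. For Tal1 with its E protein partners they were CAGATG. A motif of LIM-homeodomain factors was searched as CTAATG only. Other sequences with the letters TAAT were not searched. The distal window lies at chr16:92826025-92826324 and the proximal window, inside the gene, at chr16:92697280-92697579, both on the minus strand and both printed 5′ to 3′ on that strand.
Runx1 distal: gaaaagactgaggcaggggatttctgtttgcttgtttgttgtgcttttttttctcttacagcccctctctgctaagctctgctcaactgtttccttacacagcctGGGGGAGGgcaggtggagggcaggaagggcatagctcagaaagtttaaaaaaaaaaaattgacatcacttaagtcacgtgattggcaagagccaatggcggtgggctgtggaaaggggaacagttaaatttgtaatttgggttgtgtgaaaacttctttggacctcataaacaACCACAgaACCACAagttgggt
Runx1 proximal: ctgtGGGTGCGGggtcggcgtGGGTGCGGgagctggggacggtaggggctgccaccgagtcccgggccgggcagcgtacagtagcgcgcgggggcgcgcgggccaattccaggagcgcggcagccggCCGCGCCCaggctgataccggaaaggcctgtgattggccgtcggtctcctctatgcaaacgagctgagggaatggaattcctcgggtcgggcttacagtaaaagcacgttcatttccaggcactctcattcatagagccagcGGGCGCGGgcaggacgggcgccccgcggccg
The distal window was 45.0% G and C and held 2 matches to the Runx motif, which lie within its last bases after the start, and 1 match to the Klf motif. The proximal window was 69.0% G and C and held 4 Klf matches and no Runx match. A match is a description of letters, not of binding. Over all 32817 promoter windows of the RefSeq table, the share with at least 1 match was 11.2% for Gata, 49.5% for Klf, 16.8% for Runx, 17.2% for the Tal1 motif and 7.4% for the LIM-homeodomain motif. For the 36 windows of the 29 blood lineage genes that matched the table, the shares were 16.7%, 75.0%, 16.7%, 27.8% and 5.6%, with no adjustment for base content.

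Cbfb, the partner that Runx1 needs for stable DNA binding, was the most abundant regulator per length, at 63.0 CPM per kilobase in control against 10.0 for Runx1. It had 187, 179.7, 198 and 197 CPM in control replicates 1 and 2 and Isl1_KO replicates 1 and 2, the order used for all values below. The log2 fold change was 0.11 with an SE of 0.0629 (adjusted p = 0.358 in edgeR). The subunits of core binding factor therefore differed in their values, with Runx1 past the threshold and Cbfb not, although the difference between them was not tested.

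Tal1, Lmo2, Cbfa2t3 and Lyl1 had higher values in both Isl1_KO libraries than in both controls, while Ldb1 and Tcf3, other partners of Tal1, overlapped between the groups. Ldb1 had 171, 183, 205 and 179 CPM and Tcf3 had 256, 261, 276 and 228 CPM in the same order. Tal1, the basic helix-loop-helix factor that starts the blood program, had 38.0, 39.9, 58.3 and 90.1 CPM. Its log2 ratio to control was 0.58 in replicate 1 and 1.21 in replicate 2, and the replicate 2 level was 1.54 times that of replicate 1 (95% interval 1.40 to 1.70). The log2 fold change of 0.93 (SE 0.216) missed the threshold of edgeR (adjusted p = 0.0972) and passed that of DESeq2. Lmo2, the protein that bridges Tal1 to Gata factors, had 18.7, 19.3, 22.1 and 39.0 CPM, with a log2 fold change of 0.68 with an SE of 0.283 (adjusted p = 0.233 in edgeR). Its replicate 1 was within counting error of control, with a log2 ratio of 0.22 (95% interval -0.016 to 0.45), whereas replicate 2 stood at 1.04. Cbfa2t3, a corepressor of the same complex, had 15.6, 14.0, 22.7 and 33.3 CPM and a log2 fold change of 0.92 with an SE of 0.217 (adjusted p = 0.0986 in edgeR). Lyl1, a close relative of Tal1, had 31, 42, 89 and 69 counts and a log2 fold change of 0.66, and its exons overlap those of Nfix on the opposite strand, so that both-strand counting could mix their reads.

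Gfi1 and Gfi1b are zinc-finger repressors that Runx1 activates and that silence endothelial genes in hemogenic cells. Gfi1 was barely detected in control, where its counts were 5 and 8, against 29 and 61 in Isl1_KO. That is 0.568, 0.875, 2.23 and 5.29 CPM, a log2 fold change of 2.35 with an SE of 0.602 (adjusted p = 0.114 in edgeR). Its Isl1_KO libraries differed from each other 2.37-fold (95% interval 1.502 to 3.83). Gfi1b had 37, 33, 82 and 96 counts and a log2 fold change of 0.90 with an SE of 0.240 (adjusted p = 0.121 in edgeR), and here the Isl1_KO libraries were not separated by counting error.

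Factors of later progenitors also had values far apart. Myb, which is required for definitive but not primitive blood, had 43, 58, 200 and 353 counts, or 4.88, 6.35, 15.4 and 30.6 CPM. Every Isl1_KO value was more than 2 times every control value, and replicate 2 was 1.99 times replicate 1 (95% interval 1.67 to 2.38). The log2 fold change of 2.03 with an SE of 0.391 missed the threshold of edgeR (adjusted p = 0.0725), and the gene passed by the adjusted p of DESeq2. Ikzf1, the lymphoid zinc-finger factor Ikaros, had 6.36, 7.44, 11.5 and 23.8 CPM and a log2 fold change of 1.35 with an SE of 0.385 (adjusted p = 0.133 in edgeR). Its relative Ikzf2 (Helios) had values in the other direction, 18.7, 19.9, 17.2 and 13.4 CPM, with a log2 fold change of -0.34 with an SE of 0.166 (adjusted p = 0.297 in edgeR). The Myb window at chr10:21160935-21161234 (minus strand, GRCm38.p6) is shown because Myb had the largest log2 fold change of the regulators after Gfi1.
Myb: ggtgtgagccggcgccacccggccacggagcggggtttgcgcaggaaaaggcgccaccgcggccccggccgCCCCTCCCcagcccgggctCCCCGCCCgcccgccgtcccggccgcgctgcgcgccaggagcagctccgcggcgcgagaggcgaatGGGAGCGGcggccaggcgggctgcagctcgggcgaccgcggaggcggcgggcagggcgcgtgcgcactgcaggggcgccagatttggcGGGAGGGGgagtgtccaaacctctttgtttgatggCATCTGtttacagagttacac
It was 75.0% G and C and held 4 matches to the Klf motif and 1 to the Tal1 motif, the latter within the last bases after the start.

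The remaining regulators had smaller differences. Hhex, a homeobox gene of endothelial and blood precursors, had 106, 123, 173 and 241 counts, and only replicate 2 lay above both controls in CPM (log2 fold change 0.42 with an SE of 0.249, adjusted p = 0.369 in edgeR). Nfe2, a basic leucine zipper factor of erythroid cells and platelets, had 54, 51, 113 and 101 counts and a log2 fold change of 0.57. Klf1, the erythroid factor that activates adult beta globin, had 29, 37, 57 and 41 counts and a log2 fold change of 0.11, which was -0.027 without control replicate 1 and -0.048 without Isl1_KO replicate 1. Spi1, the myeloid factor PU.1, had 0, 2, 4 and 4 counts and Bcl11a, a repressor of globin genes, had 2, 9, 5 and 6, and neither was tested. Over the 14 tested regulators the median log2 fold change was 0.67, with 13 values above 0. The median over all tested genes was -0.0025, and 49.6% of them were above 0. The 14 include Gfi1, which reached the level of the filter in Isl1_KO only. With no filter, the median over all 16 regulators was 0.68. Set against control one library at a time, the median of the 14 was 0.58 in replicate 1 and 0.87 in replicate 2.

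**Figure D3:**
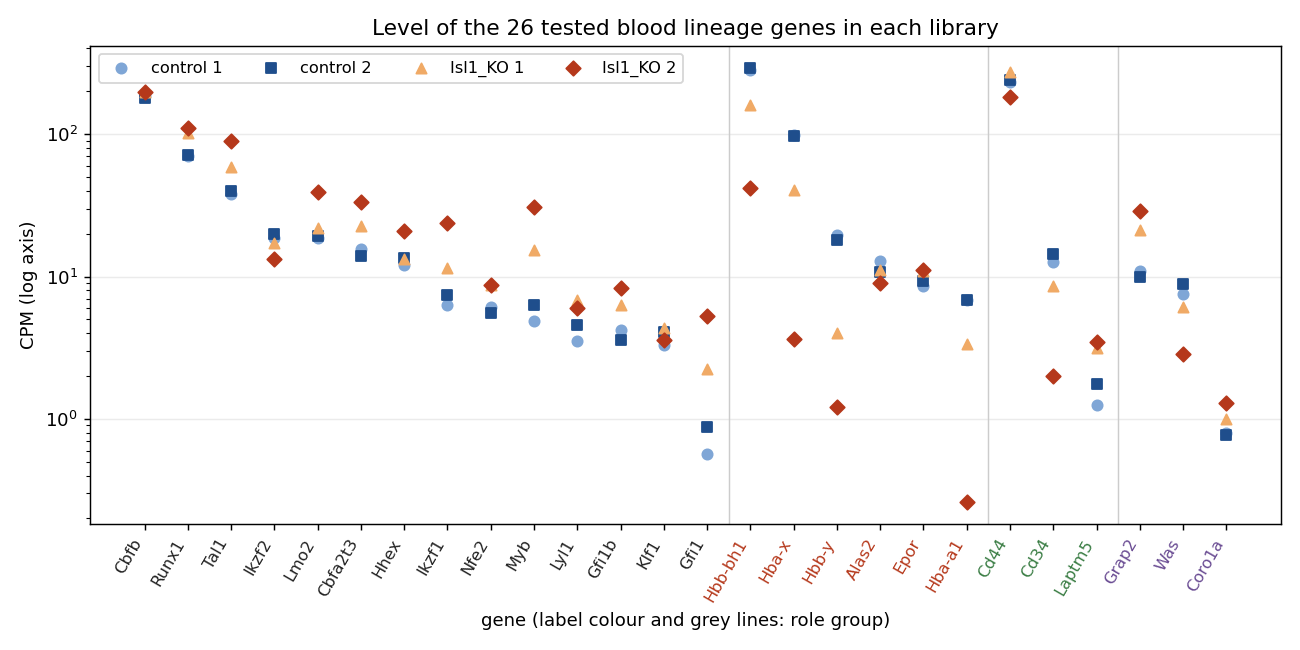
CPM of the 26 tested genes in each of the 4 libraries (vertical log axis), grouped by role and ordered by level within each group. Blue points are the control libraries and orange and red points the Isl1_KO libraries, with no mean or error bar drawn. The control points nearly coincide for most genes, and the red point of replicate 2 stands lowest for all 4 globins.

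The globins had lower values in both Isl1_KO libraries, and the clones differed widely. Hbb-bh1, the beta-type globin of primitive red cells, was the most abundant gene of the 37 per length, at 477 CPM per kilobase in control and 167 in Isl1_KO. It had 2503, 2678, 2077 and 484 counts, or 284, 293, 159.7 and 42.0 CPM. The groups did not overlap, but replicate 2 held 0.263 times the level of replicate 1 (95% interval 0.238 to 0.291). The log2 fold change was -1.51 with an SE of 0.576 (adjusted p = 0.206 in edgeR). Hba-x, the zeta globin of the alpha type, had 98.3, 97.7, 40.6 and 3.64 CPM and a log2 fold change of -2.13 with an SE of 0.859 (adjusted p = 0.222 in edgeR). Its log2 ratio to control was -1.27 in replicate 1 and -4.75 in replicate 2, and of the 26 genes Hba-a1 alone had a wider gap between the clones, on fewer counts. Hbb-y, the other embryonic beta-type globin, had 173, 166, 52 and 14 counts, with log2 ratios to control of -2.24 and -3.96 in the Isl1_KO libraries, and it came closest to the threshold, with a log2 fold change of -2.83 with an SE of 0.452 (adjusted p = 0.0524 in edgeR), and it was past that of DESeq2. Hba-a1, an adult alpha globin, had 60, 63, 44 and 3 counts and a log2 fold change of -1.86 with an SE of 0.790 (adjusted p = 0.237 in edgeR). Its near-identical copy Hba-a2 had the same counts in all 4 libraries, so these reads cannot be given to either copy.

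The makeup of the globin counts also differed between libraries. The 4 globins summed to 409 and 416 CPM in control, 208 CPM in Isl1_KO replicate 1 and 47.1 CPM in replicate 2. Hbb-bh1 made up 69.5% of globin counts in control replicate 1 (95% exact binomial interval 68.0 to 71.0), 70.5% in control replicate 2, 76.9% (75.3 to 78.5) in Isl1_KO replicate 1 and 89.1% (86.2 to 91.6) in replicate 2. Hba-x made up 24.0%, 23.5%, 19.5% and 7.73%. The share of Hbb-y was 4.80% and 4.37% in control and 1.93% and 2.58% in Isl1_KO. The globins thus did not differ from control by a common factor, and Hbb-bh1 kept the largest share in every library. Fibroblast and visceral endoderm markers, given above, were also lowest in Isl1_KO replicate 2, and their part in the globin values was not tested.

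**Figure D4:**
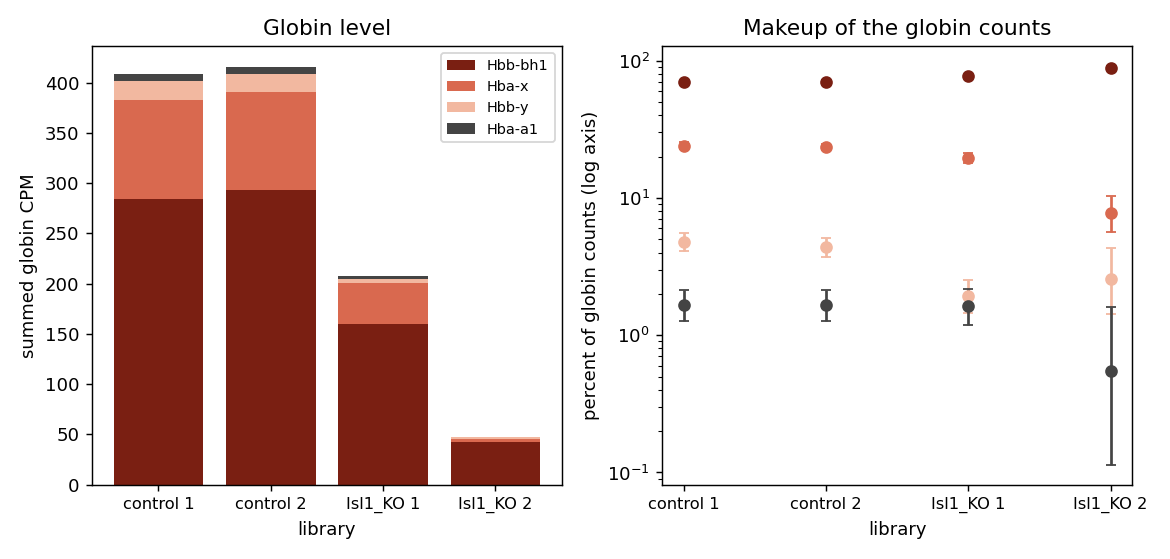
Left, CPM of the 4 globins stacked for each library, with a vertical axis that starts at 0. Right, percent of all globin counts that each globin made up (log axis), with 95% exact binomial intervals for counting error. The stack stands at 409 and 416 CPM in control and at 208 and 47.1 CPM in Isl1_KO, while the share of Hbb-bh1 is highest in Isl1_KO replicate 2.

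The start windows of Hba-x (chr11:32276350-32276649, plus strand) and Hbb-y (chr7:103853158-103853457, minus strand), again from RefSeq on GRCm38.p6, are shown because these globins had the largest differences of their types and come from separate clusters.
Hba-x: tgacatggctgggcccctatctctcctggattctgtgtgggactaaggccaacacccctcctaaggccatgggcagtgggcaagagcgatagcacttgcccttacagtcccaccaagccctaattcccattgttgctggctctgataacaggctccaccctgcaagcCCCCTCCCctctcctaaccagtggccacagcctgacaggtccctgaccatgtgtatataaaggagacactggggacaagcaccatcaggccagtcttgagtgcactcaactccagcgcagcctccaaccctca
Hbb-y: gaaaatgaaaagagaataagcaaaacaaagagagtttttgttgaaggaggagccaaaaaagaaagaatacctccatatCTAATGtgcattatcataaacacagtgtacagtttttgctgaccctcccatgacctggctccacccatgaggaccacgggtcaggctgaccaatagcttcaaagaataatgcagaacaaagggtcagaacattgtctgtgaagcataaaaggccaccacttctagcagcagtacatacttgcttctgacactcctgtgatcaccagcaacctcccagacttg
The Hba-x window was 57.3% G and C and held 1 Klf match, and the Hbb-y window was 43.3% G and C and held 1 match to the LIM-homeodomain motif.

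The erythroid genes outside the globins had values near those of control. Epor, the erythropoietin receptor, had 75, 85, 142 and 128 counts, or 8.51, 9.30, 10.9 and 11.1 CPM, with a log2 fold change of 0.30 (edgeR adjusted p = 0.302). Alas2, the first enzyme of heme synthesis in red cells, had 12.9, 10.8, 11.1 and 8.94 CPM, with a log2 fold change of -0.25 (edgeR adjusted p = 0.479), and its exons overlap those of Apex2 on the opposite strand. Neither gene separated the Isl1_KO libraries beyond counting error. The median log2 fold change of the 6 erythroid genes was -1.69, and set against control it was -0.94 in replicate 1 and -3.37 in replicate 2.

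Of the megakaryocyte genes and the blood cell surface and receptor genes, 7 were near the limit of detection. Spi1, Vav1 and Rac2, given with their own groups, also had few counts, while Grap2, Was and Laptm5, described below, had more. Pf4 and Gp9, both platelet genes, had at most 3 counts in every library, which is at the floor of 0.231 to 0.341 CPM that 3 counts correspond to. Ptprc, which encodes the pan-leukocyte protein CD45, had 1 count in 1 control library and 0 in the others. Tyrobp and Fcer1g, adaptor proteins of myeloid receptors, had 0 to 2 counts. Csf1r, the macrophage colony-stimulating factor receptor, had 6, 7, 5 and 2 counts, and its exons overlap those of Hmgxb3 on the opposite strand. Spn, the sialoprotein CD43 of leukocytes and their progenitors, had 4, 1, 5 and 8 counts. At this depth no difference between the groups was detectable in these 7 genes.

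The 3 surface genes that were tested had different patterns. Cd34, a sialomucin of blood progenitors and of endothelium, had 111, 132, 112 and 23 counts, or 12.6, 14.4, 8.61 and 2.00 CPM. Replicate 2 had 0.232 times the level of replicate 1 (95% interval 0.141 to 0.365), and the log2 fold change of -1.33 (SE 0.589) had an edgeR adjusted p of 0.254. Of 17 tested endothelial markers, none was called by edgeR, while DESeq2 called 1 in each direction by its adjusted p. At an unadjusted p under 0.05 in edgeR, 2 were higher and 6 lower, against 11.0% and 12.2% of all tested genes. Emcn and Cldn5, both among those lower, reached the level of the filter in control only. Their place among the tested genes thus depended on the group where they were higher. Tek, an angiopoietin receptor of endothelium, had 56.2, 57.9, 33.9 and 16.1 CPM and Cdh5, its junctional cadherin, had 308, 337, 399 and 190 counts, both lowest in CPM in the same library as Cd34. Other markers of this list had values in the other direction, and Flt1 (58.5, 68.1, 86.9 and 109.8 CPM) and Kdr (217, 214, 186 and 278 CPM), receptors for vascular endothelial growth factor, were highest in that library. Cd44, a hyaluronan receptor that many cell types express, had 231, 239, 275 and 183.5 CPM, so that the Isl1_KO libraries lay on opposite sides of control (log2 fold change -0.035 with an SE of 0.191, adjusted p = 0.934 in edgeR). Laptm5, a lysosomal protein of blood cells, had 11, 16, 41 and 40 counts, with a log2 fold change of 1.13 with an SE of 0.296 (adjusted p = 0.118 in edgeR), and both Isl1_KO libraries lay above control.

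Among the signalling genes, Grap2 rose and the others were low or passed no test. Grap2 (Gads), an adaptor that links receptor signalling to Lcp2 in T cells and platelets, had 96, 91, 275 and 335 counts, or 10.9, 9.96, 21.1 and 29.1 CPM. Every Isl1_KO value was above both controls, and replicate 2 was 1.37 times replicate 1 (95% interval 1.17 to 1.62). The level was 2.40-fold higher in Isl1_KO, a log2 fold change of 1.26 with an SE of 0.199 (adjusted p = 0.0494 in edgeR). The call was lost without control replicate 1 (log2 fold change 1.33) or control replicate 2 (1.20), and it was also lost with the longest transcript entry of each gene in place of the one with the most counts. Grap2 spans 80453935 to 80480989 on the plus strand of chromosome 15 in NCBIM37. Its start window at chr15:80623233-80623532 (plus strand, GRCm38.p6) is shown as that of the other gene that passed.
Grap2: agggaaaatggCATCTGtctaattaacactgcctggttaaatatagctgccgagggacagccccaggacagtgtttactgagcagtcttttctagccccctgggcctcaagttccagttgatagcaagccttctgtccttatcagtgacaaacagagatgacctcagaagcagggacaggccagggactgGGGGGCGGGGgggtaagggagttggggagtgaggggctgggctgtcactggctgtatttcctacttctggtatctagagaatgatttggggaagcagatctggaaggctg
It was 53.0% G and C and held 1 match to the Tal1 motif and a run of 2 overlapping matches to the Klf motif.

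Was, the Wiskott-Aldrich actin regulator of blood cells, had 66, 81, 79 and 33 counts, or 7.49, 8.86, 6.07 and 2.86 CPM (log2 fold change -0.86 with an SE of 0.372, adjusted p = 0.245 in edgeR). Its values were thus lowest in Isl1_KO replicate 2, at 0.471 times replicate 1 (95% interval 0.304 to 0.716). Coro1a, an actin-binding coronin of leukocytes, had 7, 7, 13 and 15 counts. Vav1, a guanine nucleotide exchange factor, had 2 to 8 counts and Rac2, a GTPase of blood cells, had 2 to 5, and neither was tested.

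Other genes of the same lineages, listed by function but with earlier results of these data known, were read from the same fit. For comparison with these lists, 0.511% of all tested genes were called higher and 1.94% lower by edgeR. The shares were 11.0% and 12.2% at an unadjusted p under 0.05, and 1.33% and 3.34% by the adjusted p of DESeq2. Of 18 genes of hemogenic mesoderm and blood progenitors, all tested, 5 in each direction had an unadjusted p under 0.05. DESeq2 called 1 of them higher and 3 lower by its adjusted p, while none rose and 2 fell by edgeR. The genes that fell were Meis1, a homeobox cofactor of Hox proteins, from 45.1 and 43.5 CPM to 10.1 and 5.90 CPM (log2 fold change -2.45, SE 0.246, adjusted p = 0.0173), and Hoxa9, from 10.6 and 10.5 to 3.61 and 2.26 CPM (log2 fold change -1.83, SE 0.262, adjusted p = 0.0402). Both are homeobox genes that blood progenitors share with other mesoderm. Gata2 and Gata1, the Gata factors that join the Tal1 complex, had log2 fold changes of 1.18 and 0.85 with adjusted p-values of 0.0876 and 0.0698. Gata2 had 26.9, 26.7, 45.5 and 76.4 CPM, and Gata1 had 9.08, 8.10, 14.5 and 16.4 CPM, so the groups did not overlap for either. Mecom, a zinc-finger factor of blood stem cells, had the log2 fold change farthest from 0 in this list, at -2.50 with an SE of 0.473 (adjusted p = 0.0707 in edgeR and 0.0378 in DESeq2). It had 29.7, 29.2, 7.92 and 2.34 CPM, so that both Isl1_KO libraries lay below control. The most abundant genes of this list, Tcf3 (an E protein partner of Tal1) and Kdr (the receptor for vascular endothelial growth factor), had log2 fold changes of -0.037 and 0.11, and for each of them the groups overlapped.

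Red cell genes outside the 37 had a mixed picture. Of 18 tested genes of this list none was called by edgeR, 2 were higher and 5 lower at an unadjusted p under 0.05, and DESeq2 called 2 lower by its adjusted p. Hemgn, among those lower at the unadjusted p, and Ermap reached the level of the filter in control only. Their place among the tested genes, and in the list median, thus depended on the group where they were higher. Slc4a1, the anion exchanger of the red cell membrane, had 88, 83, 45 and 5 counts and a log2 fold change of -2.25 (adjusted p = 0.149), so that its clones differed as those of the globins did. The most abundant genes were Tfrc, the transferrin receptor that most dividing cells express, and Car2, a carbonic anhydrase. Tfrc had 381, 379, 362 and 507 CPM, and Car2 had 87.0, 85.6, 118 and 304 CPM with an adjusted p of 0.173. The median log2 fold change of this list was -0.65, and it was -0.26 in replicate 1 and -1.17 in replicate 2.

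Among 8 tested megakaryocyte and platelet genes outside the 37, 1 fell and none rose by edgeR, with 1 higher and 2 lower at an unadjusted p under 0.05 and 2 lower by the adjusted p of DESeq2. The gene that fell was Itgb3, the beta-3 integrin, which endothelial and mesenchymal cells also express, from 49.8 and 48.0 CPM to 26.9 and 24.1 CPM (log2 fold change -0.94, SE 0.105, adjusted p = 0.0227). Its partner in the platelet receptor, Itga2b (CD41), had values in the other direction, 11.4, 11.7, 20.1 and 18.7 CPM (log2 fold change 0.75, SE 0.129, adjusted p = 0.0615). CD41 is also the earliest surface protein of embryonic blood progenitors. Of 28 further leukocyte genes, 9 were tested and none was called by edgeR, with 1 in each direction at an unadjusted p under 0.05 and 0 by the adjusted p of DESeq2. In 14 of the 28 no library had more than 3 counts, and C1qa, C1qb, C1qc, Cx3cr1 and Cd48 had 0 in all 4.

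**Figure D5:**
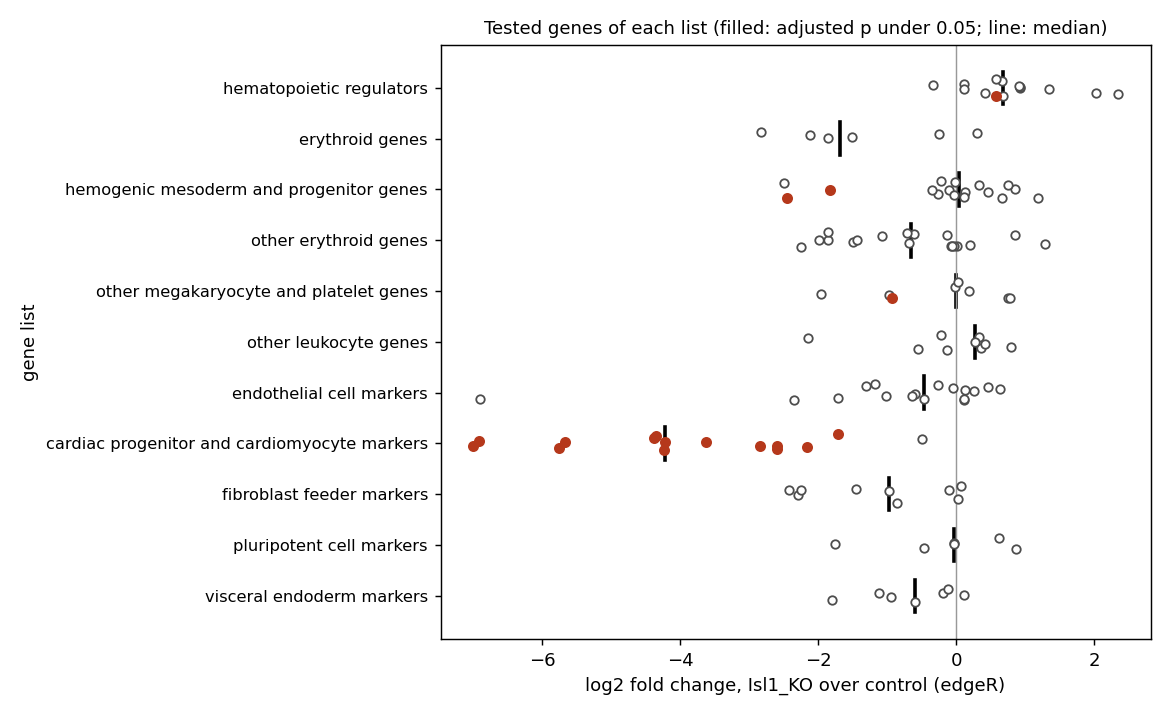
Log2 fold change in edgeR (Isl1_KO over control, horizontal axis) of each tested gene in 2 role groups of the blood lineage genes, 4 further blood gene lists and 5 marker lists. Filled points had an adjusted p under 0.05, vertical lines are medians, and the vertical scatter within a list has no meaning. The median is 0.67 for hematopoietic regulators, -1.69 for erythroid genes and -4.23 for cardiac markers.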

How the data were processed

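Poly(A) RNA of 2 control and 2 Isl1_KO clones was sequenced as stranded libraries. The authors mapped reads to mm9 with STAR and counted exonic reads of each RefSeq transcript on both strands with HOMER, without adjustment, and the deposited count of an entry is a whole number of reads. Versions were not given in the sources used here. The deposited table also holds RPKM values and columns of the authors' DESeq2 comparison (fold changes, p-values), which were not used. The number of per-sample columns not matched to a sample was 0. Titles and genotypes say knockout, the design text of the series knockdown, and the former were followed.

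Of 31507 entries, 1 per symbol was kept (the highest summed count), and 19 of the 37 genes had several. The test was edgeR 4.0.16 (R 4.3.3): TMM factors, filterByExpr (minimum count 10), quasi-likelihood F test, two-sided, no covariate, Benjamini-Hochberg over 12715 genes, threshold 0.05. The study criteria used the Wald test in DESeq2 1.42.0. CPM used effective library sizes, and 3 counts correspond to 0.341, 0.328, 0.231 and 0.260 CPM. With 2 libraries against 2, no exact permutation test can go below 0.333. Ratios between single libraries have exact conditional intervals (scipy 1.17.1). Positions are from GENCODE vM1 on NCBIM37, the assembly behind mm9, where 36 of the 37 genes were placed, and promoter windows are from RefSeq on GRCm38.p6 (29 genes matched).

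The genes and all lists were chosen with earlier results of these data known. Every gene was named, with full statistics for those past the threshold or the study criteria, the 2 most abundant of each role group, and those whose Isl1_KO libraries differed beyond counting error. From further lists, the genes past the threshold and the 2 most abundant were named, apart from the leukocyte list, whose most abundant genes are not reported here, and Gata1, Gata2, Ldb1, Mecom, Slc4a1, Tek, Cdh5 and Flt1 were added after their values were seen.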

Additional observations from a re-analysis of the deposited data

How the results depend on the processing

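All 26 log2 fold changes kept their direction under RLE size factors, no filter, the longest or all transcript entries, the replicate block and DESeq2, as did the 25 that remained at a mean CPM of at least 1 (without Coro1a). The control and Isl1_KO libraries share the numbers 1 and 2. The deviations of libraries with the same number were nearly uncorrelated (r = 0.0105 over 12715 genes, which are not independent). The control pair differed too little (biological coefficient of variation of 1.29%) for this to show whether libraries with the same number were handled together. With a replicate block, 5 of the genes were called higher and 1 lower (Tal1, Gfi1, Myb and Hbb-y in addition). That fit called 428 of 12715 genes, 92 of them higher, against 312 and 65 in the main fit. With the block, 1 gene of the further blood lists was higher, and 5 of the 37 genes met the study criteria as lower. With DESeq2 and its adjusted p, 6 were higher and 1 lower, and in the further lists 1 was higher and 7 lower, against 0 and 3 in edgeR. With no filter, 3 of the 37 genes were higher and 1 lower, and in the further lists 2 were higher and 4 lower. With the longest entry 1 was higher, and with all entries 1, since Grap2 missed the threshold in both. The study criteria with the adjusted p left 5 higher and 1 lower, against 8 and 2. Medians of small groups moved as untested genes entered or left: for surface genes from -0.035 to -1.11 with no filter and -1.19 in DESeq2, and for signalling genes from 0.55 to 0.24 with no filter, 0.20 at a mean CPM of at least 1 and 0.25 in DESeq2. Leaving out 1 library at a time gave 0 to 13 genes higher and 0 to 9 lower, 0 to 13 and 0 to 26 in the further lists, and 4 to 10 and 1 to 6 by the study criteria. The medians then ranged from 0.58 to 0.87 for regulators, -3.36 to -0.93 for erythroid genes, -0.36 to 0.23 for surface genes and 0.30 to 0.73 for signalling genes. Klf1 changed sign without control replicate 1 (-0.027) and without Isl1_KO replicate 1 (-0.048) but not otherwise (up to 0.27), and Cd44 did without Isl1_KO replicate 2 (0.23). The cause of these changes was not tested. With 2 libraries in a group and a wide spread within Isl1_KO, fold changes of single genes are imprecise, and 11 of the 37 genes were too rare to test.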
